A study of Mus musculus with 12 samples.

Results

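Genes of the motile cilium were followed in whole mouse lungs before and after birth. The set holds the genes of the deposited count table whose symbol starts with Dnah, Dnai, Dnal, Rsph, Cfap, Tekt or Drc and a digit, together with *Foxj1*, *Mcidas*, *Rfx2*, *Rfx3*, *Ccno*, *Hydin*, *Spag6l* and *Tppp3*, which gave 69 of the 16152 genes of the table. RNA was sequenced from whole lungs of wild-type C57BL/6 mice, females and males, at embryonic days E15.5 and E18.5 and at postnatal days P5 and P8, with 3 libraries at each time-point and 12 in all. No library carried a transgene or received a treatment, and the time-point is the only factor. The libraries of a time-point came from 1 litter, so litter and time-point cannot be told apart, and the p-values measure the spread between littermates. The counts on the 16152 genes summed to between 41337443 and 53901957 per library.

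Motile cilia line the conducting airways and move mucus out of the lung. Their core, the axoneme, is a ring of doublet microtubules around a central pair. Dynein arms on the doublets slide them against each other, radial spokes and the nexin-dynein regulatory complex control the sliding, and tektins brace the doublets from within. Airway cells that grow many cilia switch on *Mcidas* and *Ccno*, which drive centriole amplification, and *Foxj1* and the RFX factors, which activate axonemal genes.

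By role, the 69 genes were 5 regulators, 14 dynein heavy chains, 2 dynein light chains, 7 radial spoke genes, 2 central pair genes, 3 genes of the nexin-dynein regulatory complex, 4 tektins, 30 other Cfap genes, *Tppp3*, and the antisense transcript *Dnah2os*, which the naming rule takes in although it codes for no dynein. The intermediate chain genes carry their older symbols *Dnaic1* and *Dnaic2* in the gene names used here and are therefore not members. Levels are the deposited CPM, which relate a count to the mapped reads of its own library. In RNA from a whole organ, fewer ciliated cells and less RNA per ciliated cell cannot be told apart.

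RFX factors bind the X-box, whose core was searched as GTTGCCA and as GTTNCCNNG, and forkhead factors such as FOXJ1 bind sites that hold TGTTTAC. The X-box patterns can match the same bases, as in *Ccno*, or lie apart, and *Hydin* matched only GTTGCCA of them. Both strands of the 250 bases before each start site were read in RefSeq promoters (build GRCm38.p6), where 55 of the 69 members were matched by symbol. GTTGCCA was found in 14 of these 55 members (25.5%), against 4.19% of all 27025 genes with a promoter. GTTNCCNNG was found in 19 members (34.5%) against 15.6% of all genes, and TGTTTAC in 3 members (5.45%) against 3.54%. Per promoter, the shares over all 32851 promoters were 3.66%, 13.8% and 3.17%. Of the matched members, GTTGCCA was found in 7 of the 38 that were called higher at P8 than at E15.5 and in 7 of the other 17. A match describes these letters and is not evidence of binding. The windows below, 5′ to 3′ on the strand of the gene, show the core in capitals (GTTGCCA, or TGGCAAC where it lies on the opposite strand) for *Mcidas* and *Ccno*, for 4 structural genes called higher from E15.5 to P8, and for 2 genes called in none of the 4 comparisons.
Mcidas, chr13:112993626-112993725, plus strand: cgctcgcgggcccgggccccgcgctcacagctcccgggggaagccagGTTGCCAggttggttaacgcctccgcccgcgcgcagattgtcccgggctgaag
Ccno, chr13:112987552-112987651, plus strand: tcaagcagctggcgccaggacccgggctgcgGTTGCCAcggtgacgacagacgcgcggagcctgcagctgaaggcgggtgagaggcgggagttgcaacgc
Hydin, chr8:110266877-110266976, plus strand: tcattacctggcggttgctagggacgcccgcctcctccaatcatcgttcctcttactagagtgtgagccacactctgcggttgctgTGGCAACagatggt
Drc1, chr5:30281293-30281392, plus strand: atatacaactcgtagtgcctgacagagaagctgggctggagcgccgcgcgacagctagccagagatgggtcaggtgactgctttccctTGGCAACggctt
Cfap161, chr7:83794840-83794939, minus strand: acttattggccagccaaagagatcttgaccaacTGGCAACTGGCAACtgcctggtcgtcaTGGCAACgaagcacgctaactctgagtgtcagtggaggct
Cfap44, chr16:44394664-44394798, plus strand: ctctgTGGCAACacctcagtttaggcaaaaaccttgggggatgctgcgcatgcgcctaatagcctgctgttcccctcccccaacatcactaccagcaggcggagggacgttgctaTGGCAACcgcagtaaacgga
Cfap20, chr8:95434870-95434969, minus strand: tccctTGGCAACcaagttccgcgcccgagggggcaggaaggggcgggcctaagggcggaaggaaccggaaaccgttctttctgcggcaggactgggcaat
Cfap298, chr16:90934850-90934949, minus strand: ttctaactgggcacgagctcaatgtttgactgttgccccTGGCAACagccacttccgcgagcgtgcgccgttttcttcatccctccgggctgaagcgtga
*Cfap161* held 3 copies of the core within 67 bases of its start, and *Cfap44* held 2.

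Some libraries stood apart in genes of other tissues. Markers of squamous epithelium summed to 799.99 CPM in P8 replicate 1 and 611.972 CPM in P8 replicate 2, against 4.01 CPM in P8 replicate 3 and at most 3.11 CPM in the other 9 libraries. Basal cell markers were high in the same P8 libraries (210.4, 185 and 12.5 CPM in P8 replicates 1 to 3), as were thymus markers (151, 299 and 12.5 CPM). Goblet and serous cell markers of the larger airways (717, 762 and 156 CPM) and cartilage markers of the trachea and bronchi (95.5, 134.7 and 20.3 CPM) were also higher in P8 replicates 1 and 2 than in replicate 3. *Col2a1* made up much of the cartilage sums (53.6, 93.7 and 4.27 CPM), and *Hapln1* of that list did not follow them (11.4, 13.4 and 13.4 CPM). E15.5 replicate 2 held 19.97 CPM of thymus markers, where the other E15.5 libraries held under 1, and 47.4 CPM of basal cell markers. Counts of called genes up to P5, and median changes to P8, are therefore also given without these 3 libraries, a choice made after the data were seen. The 69 members summed to 983, 1177 and 1036 CPM in P8 replicates 1 to 3, and the part of the other tissues in their P8 levels was not tested. Male germ cells share axonemal genes with airway cells. Of the 8 germ cell markers, *Tnp1* was at 0 in all 12 libraries, and *Prm1*, *Prm2* and *Acrv1* had means of at most 0.194 CPM at any time-point. *Sycp3* and *Ddx4* had means of at most 0.196 and 0.651 CPM, and *Tssk6* went from 1.88 CPM at E15.5 to 0.923 CPM at P8. *Spata18* went from 0.599 to 20.2 CPM and was called higher. The part of germ cells in the members' levels was not tested. Pan-epithelial markers (*Epcam*, *Cdh1* and 5 others) had mean sums of 841, 966, 621 and 853 CPM at the 4 time-points in order. These sums joined markers that moved apart. From E15.5 to P8, *Epcam* (208.6 to 70.3 CPM) was called lower, *Krt19* (61.2 to 149 CPM) higher, and the rest were not called. From E18.5 to P5, all 5 alveolar type 1 and all 5 alveolar type 2 markers were called higher, where 17.5% of all genes were.

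**Figure D1:**
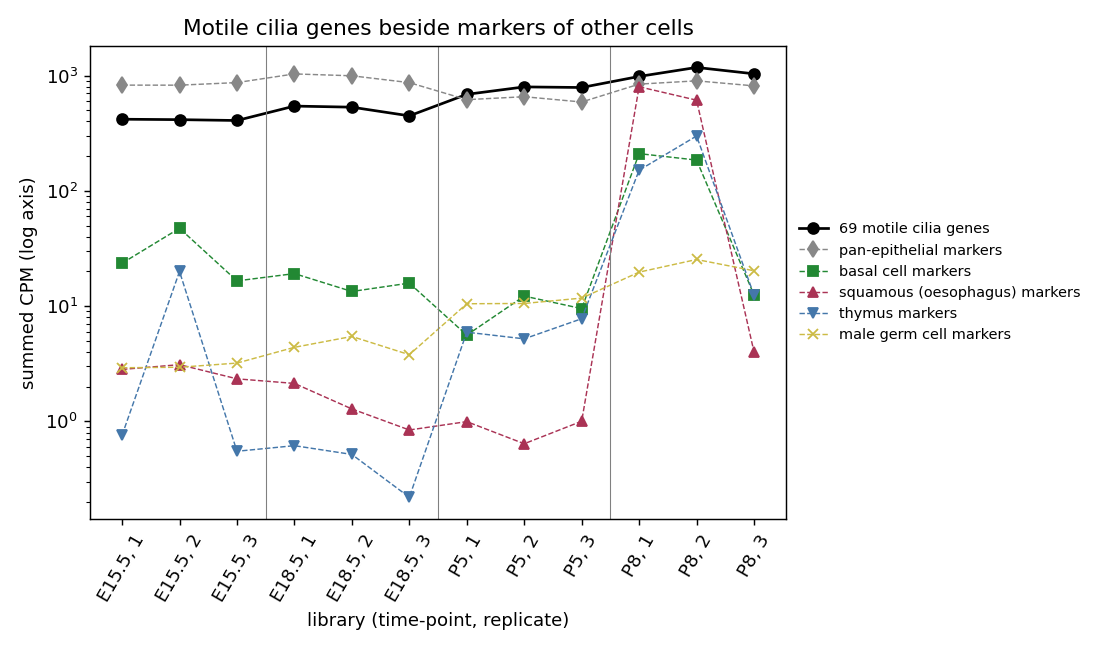
Summed CPM on a log axis for the 69 motile cilia genes (black) and for lists of marker genes, in each of the 12 libraries. The motile cilia genes rise from 408 to 418 CPM at E15.5 to between 983 and 1177 CPM at P8, while squamous, basal and thymus markers are highest in P8 replicates 1 and 2 (thymus and basal markers also stand above their group in E15.5 replicate 2).

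The members as a group stood lowest at E15.5 and highest at P8. Before birth their summed CPM was 408 to 418 (E15.5) and 448 to 544 (E18.5). After birth it was 688 to 798 (P5) and 983 to 1177 (P8). Much of the rise across birth came from *Tppp3* alone, whose mean went from 20.7 (E18.5) to 182 CPM (P5). Leaving *Tppp3* out, the library sums were 391 to 400 (E15.5), 428 to 523 (E18.5), 532 to 606 (P5) and 765 to 951 (P8). The mean level was highest at P8 for 56 of the 69 members and lowest at E15.5 for 52. The median member stood at 11.1% (E15.5), 20.7% (E18.5) and 53.0% (P5) of its P8 level. The 12 members that averaged at least 10 CPM at E15.5 had a median ratio of P8 to E15.5 of 0.965 and a ratio of summed levels of 1.58, and the other 57 had ratios of 14.6 and 6.94. The E15.5 level that divides these classes is also the denominator of the ratios. The 12 were *Cfap20*, *Dnal4*, *Cfap97*, *Cfap36*, *Cfap43*, *Rfx3*, *Dnal1*, *Cfap298*, *Rsph3a*, *Rsph3b*, *Cfap300* and *Tppp3*. Among them *Tppp3* went from a mean of 17.5 CPM at E15.5 to 219 CPM at P8 and *Cfap43* from 29.9 to 53.0 CPM. Of the 69 members, 31 had fewer than 3 prenatal libraries at 1 CPM, and 17 of these stayed under 1 CPM in all 6 prenatal libraries. All of the 31 but *Cfap97d2*, which was not tested, passed the filter for testing (1 CPM in 3 or more libraries) only with the help of postnatal libraries and so were likely to be higher after birth. For that reason the medians and the counts of members called higher, here and in the comparisons that span birth, are descriptions that include them. Per kb of exon, *Dnal4* led the members before birth at 21.2 and 22.7 CPM at E15.5 and E18.5, and *Tppp3* after birth at 98.7 and 118 CPM at P5 and P8.

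**Figure D2:**
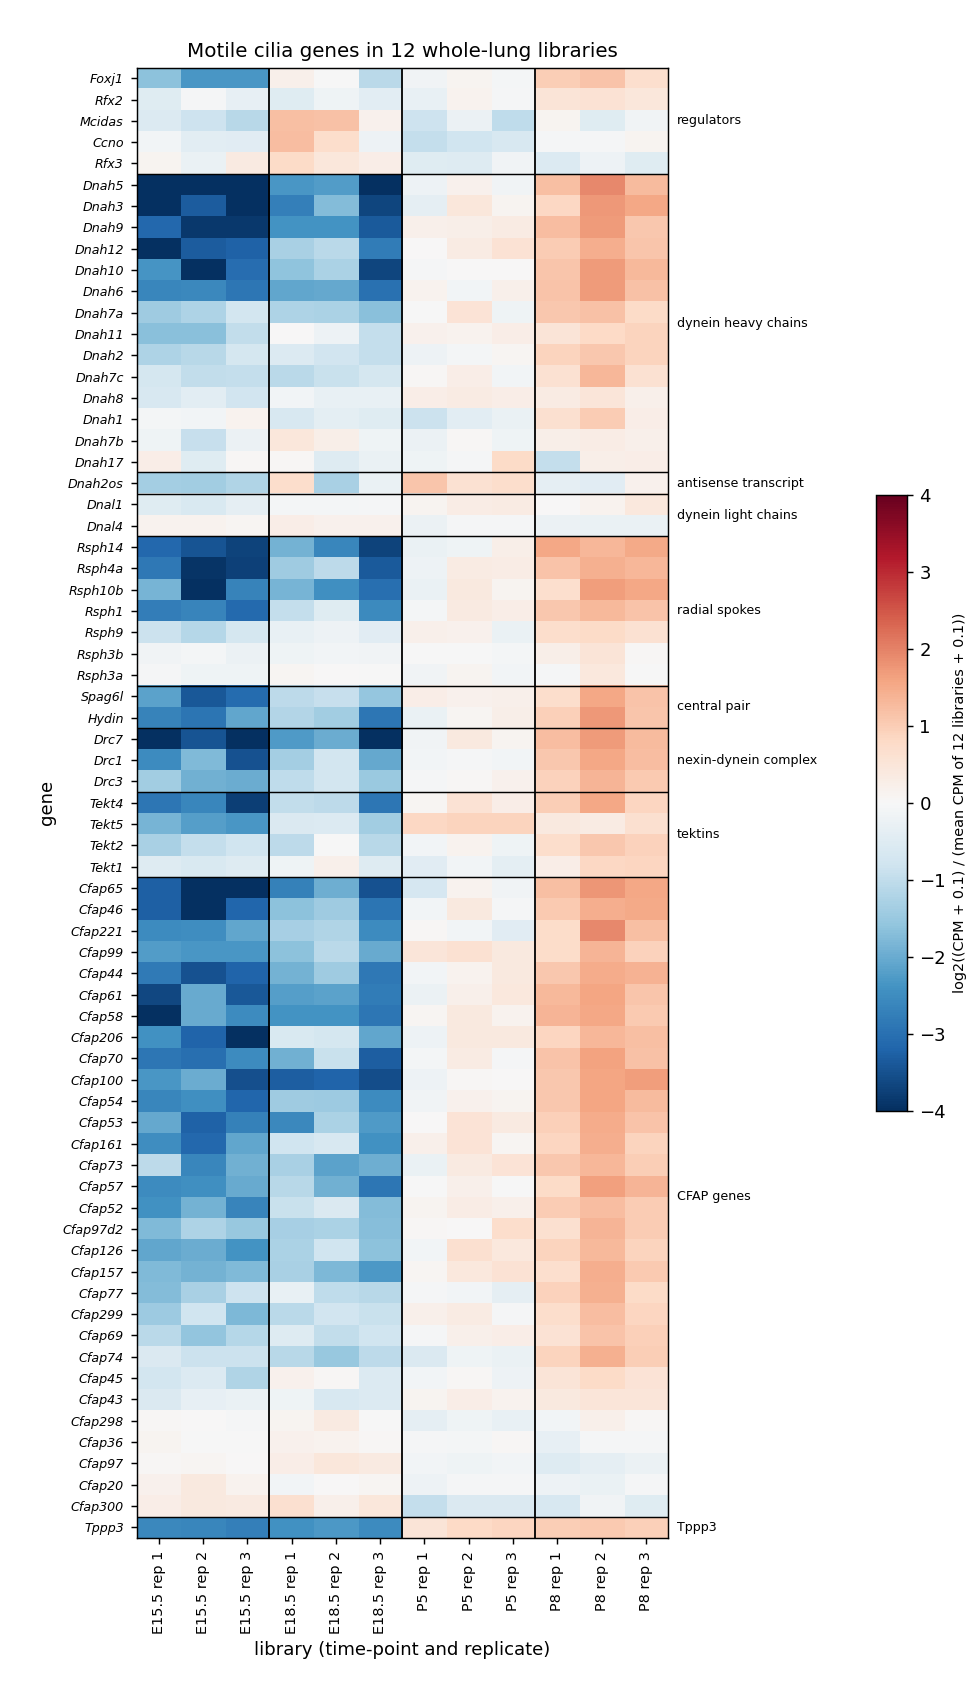
Heat map of the 69 genes (rows, grouped by role and sorted by their ratio of P8 to E15.5) in the 12 libraries (columns). Colour is log2 of (CPM + 0.1) over the gene's mean of the 12 libraries + 0.1, and saturates at -4 and 4. Most structural genes go from blue before birth to red at P8, *Mcidas* and *Ccno* are reddest at E18.5, and E18.5 replicate 3 is the bluest of its group in most rows.

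The first comparison, E15.5 to E18.5, asks what changed as the embryonic lung neared birth. Of the 68 members tested, 22 were called higher (absolute log2 fold change above 1 and FDR under 0.05 in edgeR's quasi-likelihood test, adjusted over 15994 genes) and 0 lower. *Cfap97d2* was too low to be tested. Of all genes tested, 1.59% were called higher and 1.46% lower (3.04% in either direction). The median log2 fold change was 0.63 for the members and -0.0084 for all genes. By role, 3 of 5 regulators, 5 of 14 dynein heavy chains, 2 of 7 radial spoke genes, 1 of 2 central pair genes, 1 of 3 genes of the nexin-dynein complex, 2 of 4 tektins and 8 of 29 Cfap genes were called higher, and neither light chain was. At an unadjusted p under 0.05 in edgeR, 41 members were higher and 3 lower, and DESeq2 called 25 higher and 1, *Cfap100*, lower. The E18.5 libraries were uneven, since replicate 3 was the lowest of the 3 for 52 of the 69 members. The count was 29 without E18.5 replicate 3, 10 without replicate 1, 11 without replicate 2, 14 without E15.5 replicate 3 (13 higher and 1 lower) and 17 without the 3 libraries that stood apart.

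*Mcidas* (chr13:112993845-113000394), a regulator of the multiciliogenesis programme, was at 1.99, 1.63 and 1.32 CPM in the E15.5 libraries and at 6.94, 6.81 and 3.37 CPM at E18.5. The groups did not overlap, and the log2 fold change was 1.80 (standard error, SE, 0.32, edgeR FDR = 0.0033). *Ccno* (chr13:112987802-112990777), its neighbour on chromosome 13 and a cyclin-like factor of centriole amplification, was at 6.58, 5.27 and 5.13 CPM and then at 16.8, 11.7 and 6.15 CPM, so that E18.5 replicate 3 lay within the E15.5 range. Its log2 fold change of 1.04 (edgeR FDR = 0.02) was at the cutoff, and the call was lost without E15.5 replicate 2 or 3 or E18.5 replicate 1 or 2, at values of 0.66 to 1.04. *Foxj1* (chr11:116330704-116335399), the main activator of motile cilia genes, went from 11.7, 7.21 and 7.20 CPM to 42.0, 36.6 and 17.2 CPM, a log2 fold change of 1.88 (SE 0.29, edgeR FDR = 0.0018). All 3 E18.5 libraries were above all 3 at E15.5. *Rfx2* and *Rfx3*, the RFX factors of the set, did not pass the test, with log2 fold changes of -0.07 and 0.43 (edgeR FDR = 0.74 and 0.095).

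**Figure D3:**
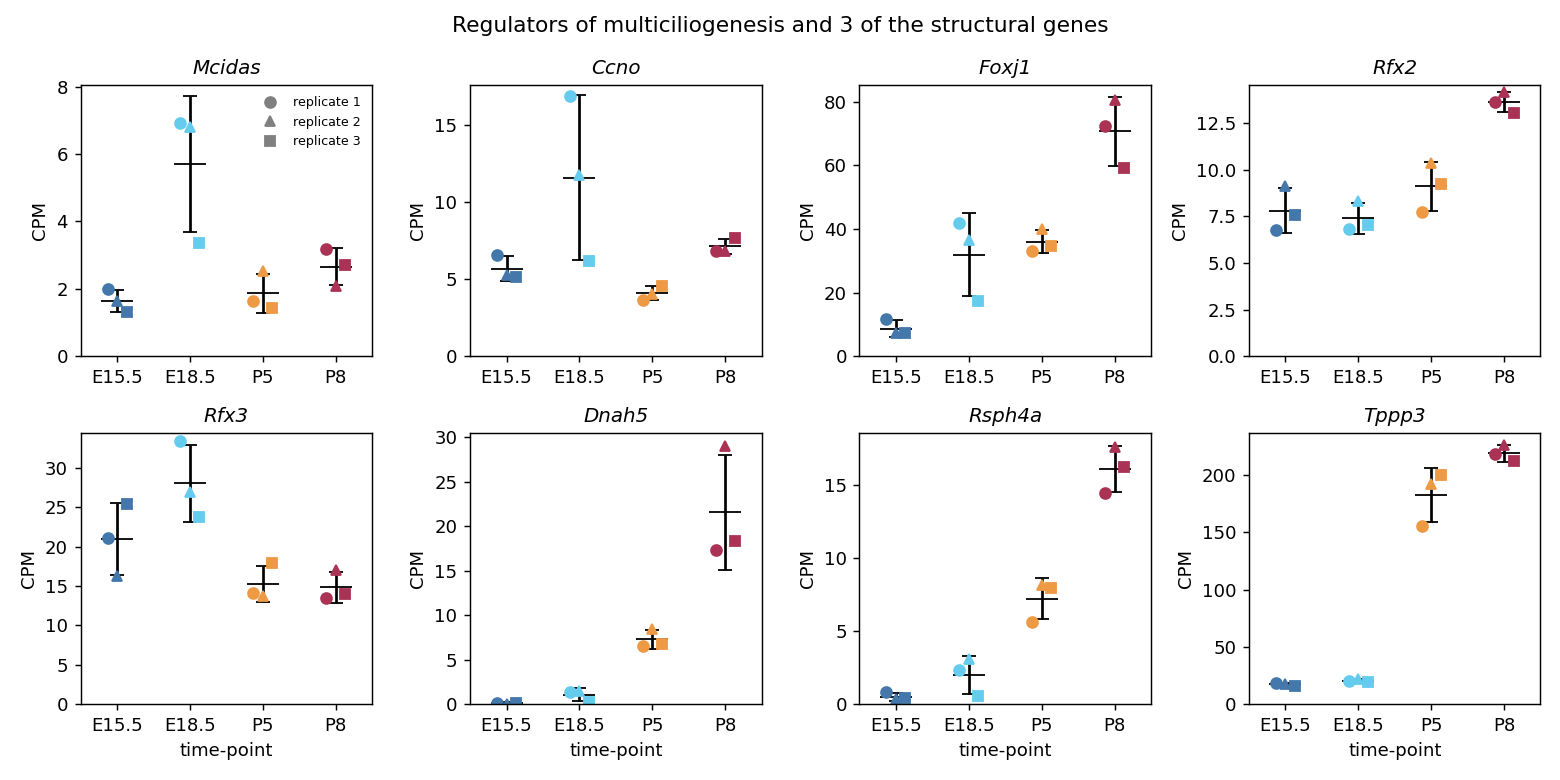
CPM by time-point for the 5 regulators and for *Dnah5*, *Rsph4a* and *Tppp3*; symbols are the 3 replicates, horizontal bars the mean and error bars the SD. *Mcidas* and *Ccno* peak at E18.5, *Foxj1* is higher at E18.5 than at E15.5 and highest at P8, and *Tppp3* goes from 19.2 to 22.3 CPM at E18.5 to between 156 and 200 CPM at P5.

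Among structural genes, *Dnah5*, an outer arm heavy chain, had the largest change of the interval. It was at 0.194, 0.0590 and 0.138 CPM (12, 3 and 7 counts) at E15.5 and at 1.42, 1.53 and 0.256 CPM at E18.5, a log2 fold change of 2.98 (SE 0.61, edgeR FDR = 0.0063). *Cfap206*, a radial spoke adaptor, rose by 2.27 (edgeR FDR = 0.006), *Cfap46*, a central pair protein, by 2.27 (edgeR FDR = 0.025), and the inner arm chain *Dnah12* by 2.24 (edgeR FDR = 0.005) on the log2 scale. *Rsph4a*, of the radial spoke head, changed by 1.94, and its E18.5 value of 0.531 CPM in replicate 3 lay within the E15.5 range of 0.334 to 0.807 CPM. The calls of *Cfap46* and *Rsph4a* were lost without E18.5 replicate 1 or 2, at 1.94 to 2.12 and 1.48 to 1.79, and that of *Rsph4a* also without E15.5 replicate 2 or 3. *Spag6l*, of the central pair, rose by 1.74 (edgeR FDR = 0.0046), whereas *Hydin*, another central pair gene, had a log2 fold change of 0.96 (edgeR FDR = 0.12). *Cfap100* had the lowest value of all members, -1.50 (edgeR FDR = 0.062), from 0.059 to 0.354 CPM down to at most 0.0957 CPM.

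Between E18.5 and P5, the interval that spans birth, most structural genes rose and the early regulators did not. Of the 68 members, 41 were called higher and 3 lower, where 17.5% of all genes were called higher and 9.34% lower (26.8% in either direction). The median log2 fold change was 1.33 for the members and -0.0024 for all genes. Called higher were 8 of 14 dynein heavy chains, 4 of 7 radial spoke genes, both central pair genes, all 3 genes of the nexin-dynein complex, 2 of 4 tektins, 21 of 29 Cfap genes and *Tppp3*, and 0 of 5 regulators. With each library left out in turn the count of calls stayed between 41 and 45, and without the 3 libraries that stood apart it was 44, the same genes.

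The 3 members called lower were *Mcidas*, *Ccno* and *Cfap300*. *Mcidas* went from 6.94, 6.81 and 3.37 CPM to 1.64, 2.52 and 1.43 CPM, which is a log2 fold change of -1.54 (SE 0.32, edgeR FDR = 0.00087). *Ccno* went from 16.8, 11.7 and 6.15 CPM to 3.64, 4.03 and 4.55 CPM, with -1.42 (SE 0.28, edgeR FDR = 0.00054). For both, every P5 library lay below every E18.5 library, and their changes before and after E18.5 share the E18.5 libraries. *Cfap300*, which takes part in dynein arm assembly, went from between 9.34 and 12.6 CPM to between 4.06 and 5.37 CPM (log2 fold change -1.08, edgeR FDR = 4.6e-05), and was not called without E18.5 replicate 1 or P5 replicate 1, at -0.96 and -0.99. *Foxj1* was at 33.1, 40.0 and 34.8 CPM at P5, which overlapped its E18.5 values (log2 fold change 0.26, edgeR FDR = 0.42). *Rfx3* had a log2 fold change of -0.79 (edgeR FDR = 0.0013), short of the fold cutoff, and *Rfx2* one of 0.38 (edgeR FDR = 0.023).

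*Tppp3* (chr8:105467493-105471526), a tubulin-binding protein abundant in ciliated cells, had the smallest FDR of the members. Its E18.5 libraries held 20.5, 22.3 and 19.2 CPM and its P5 libraries 156, 192 and 200 CPM (log2 fold change 3.22, SE 0.088, edgeR FDR = 1.3e-10). Before birth it had not passed the test (log2 fold change 0.24, edgeR FDR = 0.058). The largest fold was that of *Cfap100*, from between 0.0549 and 0.0957 CPM to 1.46, 1.75 and 1.71 CPM (log2 fold change 4.45, SE 0.48, edgeR FDR = 3.4e-06). *Rsph14*, a radial spoke gene, was at 12, 6 and 0 counts in the E18.5 libraries and at 61, 51 and 86 counts at P5 (log2 fold change 3.34, edgeR FDR = 0.0005). *Cfap58* rose by 3.30 (edgeR FDR = 0.00014) and the outer arm chain *Dnah9* by 3.14 (edgeR FDR = 1.1e-06), both as log2. *Dnah9* was at 0.985, 0.976 and 0.458 CPM before birth and at 6.42, 6.65 and 7.07 CPM at P5, with no overlap.

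**Figure D4:**
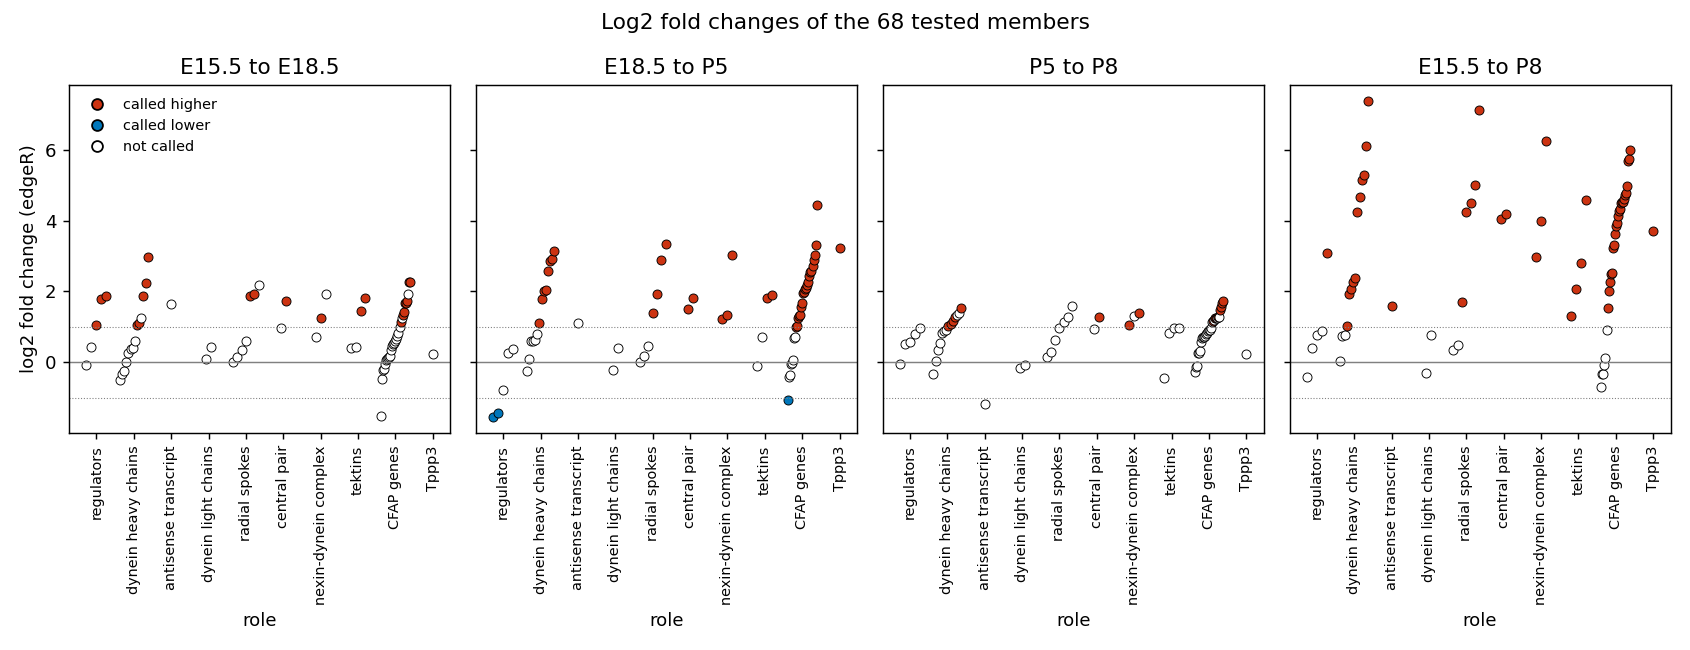
Log2 fold change of each of the 68 tested members (points) in the 4 comparisons, by role; red marks called higher, blue called lower and white not called, and dotted lines mark -1 and 1. The 3 blue points lie in E18.5 to P5 and are *Mcidas*, *Ccno* and *Cfap300*; the light chains are white in all 4 panels.

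Between P5 and P8 the members had 16 calls, all higher, where 2.88% of all genes were called higher and 0.0875% lower (2.96% in either direction). The median log2 fold change was 0.90 for the members and -0.0012 for all genes. The calls were 5 of 14 dynein heavy chains, 1 of 2 central pair genes, 2 of 3 genes of the nexin-dynein complex and 8 of 29 Cfap genes, with no regulator, radial spoke gene or tektin. This count depended on single libraries. It was 4 without P8 replicate 2, the highest of the 3 P8 libraries for 54 of the 69 members. It was 7, 8 and 6 without P5 replicates 1, 2 and 3. Without the 3 libraries that stood apart only P8 replicate 3 is left, so the spread at P8 cannot be measured and no calls are given. At an unadjusted p under 0.05 in edgeR, 50 members were higher and 3 lower, and DESeq2 called 23 higher and 0 lower. The median over the members moved less, and was 0.80 without the 3 libraries.

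*Cfap65*, *Cfap221* (central pair), *Cfap100*, *Dnah5* and *Cfap74* (central pair) had the largest changes past the test. *Dnah5* was at 6.57, 8.49 and 6.82 CPM at P5 and at 17.3, 29.0 and 18.4 CPM at P8, with all P8 libraries above all P5 libraries (log2 fold change 1.55, SE 0.40, edgeR FDR = 0.023). *Cfap65* went from 3.55, 6.34 and 5.18 CPM to 13.4, 19.8 and 17.03 CPM (log2 fold change 1.72, edgeR FDR = 0.015), and *Cfap221* from between 0.394 and 0.594 CPM to between 1.01 and 2.43 CPM (log2 fold change 1.66, edgeR FDR = 0.039). *Cfap221* met the filter for testing (1 CPM in 3 or more libraries) only through its P8 libraries, so it was likely to be higher at P8. The count and the median of this interval include it. The call of *Cfap65* was lost without P8 replicate 2 or P5 replicate 1 or 3, that of *Dnah5* also without P5 replicate 2, and that of *Cfap221* also without P5 replicate 2 or P8 replicate 1. Their values in those fits were 1.54 to 1.72, 1.28 to 1.64 and 1.26 to 1.88 on the log2 scale. The call of *Cfap100* (1.55, edgeR FDR = 0.013) was lost without P5 replicate 3, at 1.56. *Cfap74* kept its call in the 12 fits that leave out 1 library. It went from 1.93, 2.60 and 2.40 CPM at P5 to 5.5003, 8.04 and 5.83 CPM at P8 (log2 fold change 1.47, SE 0.21, edgeR FDR = 0.0018). *Foxj1* reached 72.3, 80.5 and 59.0 CPM at P8, above every P5 library, with a log2 fold change of 0.96 (SE 0.27, edgeR FDR = 0.032) that was short of the fold cutoff. *Mcidas* and *Ccno* had log2 fold changes of 0.50 and 0.79 (edgeR FDR = 0.29 and 0.067). *Tekt5*, a tektin, had its highest mean at P5, at 5.84, 6.17 and 6.16 CPM against 4.27, 4.12 and 5.10 CPM at P8 (log2 fold change -0.45, edgeR FDR = 0.18).

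Over the whole series, from E15.5 to P8, 51 of 68 members were called higher and 0 lower, where 20.9% of all genes were called higher and 11.5% lower (32.3% in either direction). The median log2 fold change was 3.16 for the members and -0.024 for all genes. At an unadjusted p under 0.05 in edgeR, 59 members were higher and 5 lower, and DESeq2 called 51 higher and 0 lower. Leaving out single libraries gave 50 or 51 calls. Without the 3 libraries that stood apart, which leaves 1 library at P8, the median over the members was 3.04. This comparison shares its libraries with those above. *Dnah5* rose the most, by 7.38 on the log2 scale (SE 0.59, edgeR FDR = 1.7e-07), followed by *Rsph14* at 7.12, *Drc7* of the nexin-dynein complex at 6.24, the inner arm chain *Dnah3* at 6.11 and *Cfap65* at 6.00. These 5 had between 0 and 31 counts in each E15.5 library, so their folds rest on few reads at the start. Of the regulators, *Foxj1* was called higher (3.09, edgeR FDR = 9.5e-07), while *Mcidas* was at 0.77, *Rfx2* at 0.88, *Ccno* at 0.40 and *Rfx3* at -0.42.

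The dynein heavy chains, the motors of the axoneme, did not move as 1 group. At P8, per kb of exon, *Dnah6* (1.62 CPM) and *Dnah5* (1.38 CPM) led, followed by *Dnah10* (0.929 CPM, named after its value was seen), *Dnah12* (0.915 CPM) and *Dnah9* (0.905 CPM), as means of the P8 libraries. *Dnah6* was above *Dnah5* in each of the 3 P8 libraries (1.37, 2.07 and 1.43 against 1.11, 1.86 and 1.17 CPM per kb), and *Dnah5* was above *Dnah10*, *Dnah12* and *Dnah9* in each, while the order of *Dnah10*, *Dnah12* and *Dnah9* differed between libraries. *Dnah6*, of the inner arm, was at 1.26, 1.30 and 1.02 CPM in the E15.5 libraries and 1.87, 1.91 and 0.952 CPM in those of E18.5. It then reached 9.14, 7.72 and 9.47 CPM (P5) and 18.2, 27.4 and 18.9 CPM (P8), with no overlap between these groups. Its log2 fold change was 0.41 before birth (edgeR FDR = 0.27), 2.56 from E18.5 to P5 (edgeR FDR = 1.3e-06) and 1.27 from P5 to P8 (edgeR FDR = 0.0048). Without the 3 libraries that stood apart, its log2 fold change from P5 to P8 was 1.08. *Dnah8* started high, at 4.39 to 5.52 CPM, and ended at 8.63 to 10.5 CPM, a log2 fold change of 1.03 over the series that was 0.97, and not called, without E15.5 replicate 3 or P8 replicate 2. *Dnah17*, a heavy chain of sperm tails, was at 0.369 to 1.43 CPM in the 12 libraries and had a log2 fold change of 0.04 from E15.5 to P8 (edgeR FDR = 0.93). *Dnah7a*, *Dnah7b* and *Dnah7c* are close copies, and how reads that match several of them were counted was not examined, so their separate values of 2.37, 0.74 and 1.93 from E15.5 to P8 are uncertain. *Dnah2os* overlaps 312 bases of *Dnah2* exons on the other strand, 36.3% of its own exons, and whether the counting used the strand is not given in the sources used here. Its log2 fold change from E15.5 to P8 was 1.59 (edgeR FDR = 0.021), at no more than 1.35 CPM.

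The 2 light chains were called in none of the comparisons. *Dnal1* was at 20.04, 18.4 and 22.1 CPM at E15.5 and at 28.4, 31.0 and 38.2 CPM at P8 (log2 fold change 0.76, edgeR FDR = 1.2e-05). *Dnal4* went from 51.3, 52.0 and 49.0 CPM to 40.1, 38.6 and 38.6 CPM (log2 fold change -0.30, edgeR FDR = 0.00081). Neither passed the fold cutoff. The intermediate chain genes outside the rule, named after their values were seen, moved differently from the light chains. *Dnaic2* had mean levels of 0.895, 2.66, 6.40 and 16.4 CPM and a log2 fold change of 4.25 from E15.5 to P8 (edgeR FDR = 2.5e-07), and *Dnaic1* means of 0.730, 0.514, 2.87 and 3.89 CPM and one of 2.48 (edgeR FDR = 2.5e-06).

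Of the 7 radial spoke genes, 5 were called higher from E15.5 to P8, where 20.9% of all genes tested were. *Rsph4a*, of the spoke head, went from 0.807, 0.334 and 0.393 CPM at E15.5 to 14.4, 17.6 and 16.2 CPM at P8 (log2 fold change 5.02, SE 0.53, edgeR FDR = 2.1e-06). *Rsph1* and *Rsph9*, also of the spoke head, rose by 4.24 and 1.69 over the same span (edgeR FDR = 1.4e-06 and 1.3e-06), *Rsph10b* by 4.50 (edgeR FDR = 7.2e-05) and *Rsph14* by 7.12. *Rsph9* was called in none of the 3 successive intervals. *Rsph1*, *Rsph9* and *Rsph10b* were named after their values were seen. *Rsph3a* and *Rsph3b*, close copies of a spoke stalk gene whose reads could be split between them, were at 13.1 to 19.9 CPM and 14.8 to 24.7 CPM in the 12 libraries, with log2 fold changes of 0.33 and 0.50 short of the cutoff.

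Of the central pair genes, *Hydin* was at 0.678, 0.550 and 1.06 CPM at E15.5 and at 9.52, 16.2 and 10.6 CPM at P8 (log2 fold change 4.06, SE 0.43, edgeR FDR = 2.4e-06). *Spag6l* was at 1.03, 0.374 and 0.492 CPM and then at 8.004, 14.4 and 10.8 CPM (log2 fold change 4.18, SE 0.35, edgeR FDR = 2.5e-07). P8 replicate 2 was the highest library for both. The 3 genes of the nexin-dynein complex, *Drc1*, *Drc3* and *Drc7*, were called higher from E18.5 to P5 at 1.33, 1.22 and 3.02, where 17.5% of all genes tested were. *Drc3* had the most reads of them, at 3.29, 2.24 and 2.16 CPM at E15.5 and 16.9, 22.4 and 18.2 CPM at P8.

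The 3 Cfap genes with the highest mean CPM were not called from E15.5 to P8. *Cfap20* was at 61.5 to 73.0 CPM at E15.5 and 46.5 to 54.4 CPM at P8 (log2 fold change -0.33, edgeR FDR = 0.0023), *Cfap97* at 36.1 to 37.9 and 25.3 to 30.6 CPM (-0.33, edgeR FDR = 0.00076), and *Cfap43* at 26.2 to 32.5 and 50.5 to 54.5 CPM (0.90, edgeR FDR = 1.7e-05). In all, 23 of 29 tested Cfap genes were called higher from E15.5 to P8, where 20.9% of all genes tested were. The exons of *Cfap298* overlap another gene over 44.2% of their length, so its level of 15.48 to 25.4 CPM is uncertain.

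All 4 tektins were called higher from E15.5 to P8, where 20.9% of all genes tested were. *Tekt4* was at 0.403, 0.511 and 0.177 CPM in the E15.5 libraries and 1.79, 1.70 and 0.403 CPM in those of E18.5, which overlapped. It was at 3.85, 5.49 and 4.45 CPM (P5) and 7.35, 10.9 and 6.71 CPM (P8) after birth, with no overlap. *Tekt4* and *Tekt5* were called higher from E15.5 to E18.5 (1.83 and 1.45) and from E18.5 to P5 (1.91 and 1.80), and neither was from P5 to P8. The *Tekt4* call from E15.5 to E18.5 was lost without E15.5 replicate 1 or 3 or E18.5 replicate 1 or 2, at 1.52 to 1.91. *Tekt1* and *Tekt2* were called in none of the 3 successive intervals, and *Tekt2*, named after its values were seen, rose by 2.08 from E15.5 to P8 (edgeR FDR = 4.7e-05). *Tekt1* (chr11:72344722-72362442) was at 4.21, 3.89 and 4.19 CPM at E15.5 and 4.38, 5.64 and 4.54 CPM at P5, and reached 7.29, 10.8 and 10.9 CPM at P8, above all earlier libraries. Its log2 fold change was 0.98 from P5 to P8 (edgeR FDR = 0.0074), short of the fold cutoff, and 1.31 from E15.5 to P8 (edgeR FDR = 5.4e-05).

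*Tekt1* also held the 1 splicing event of the members in the study's list of changed events. The event is an alternative exon, and the list was chosen on these libraries, so its values are described with no test. Its inclusion, as percent spliced in (PSI), was 66.67, 80.0 and 69.23% in the E15.5 libraries and 93.44, 83.91 and 79.71% in those of E18.5. After birth it was 100, 100 and 97.01% in the P5 libraries and 93.88, 97.39 and 95.32% in those of P8. Each value rests on 55 to 167 corrected reads, and the deposited coverage score was low in E18.5 replicates 1 and 3. Before birth the means were 72.0% ± 7.07 (E15.5) and 85.7% ± 7.04 (E18.5), and after birth 99.0% ± 1.73 (P5) and 95.5% ± 1.76 (P8), each with its SD over 3 libraries. The E15.5 range reached the lowest E18.5 library, while all postnatal libraries were above all prenatal ones. The gene level was at 4.85 ± 0.683 CPM at P5, when inclusion was highest, and 9.68 ± 2.08 CPM at P8.

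**Figure D5:**
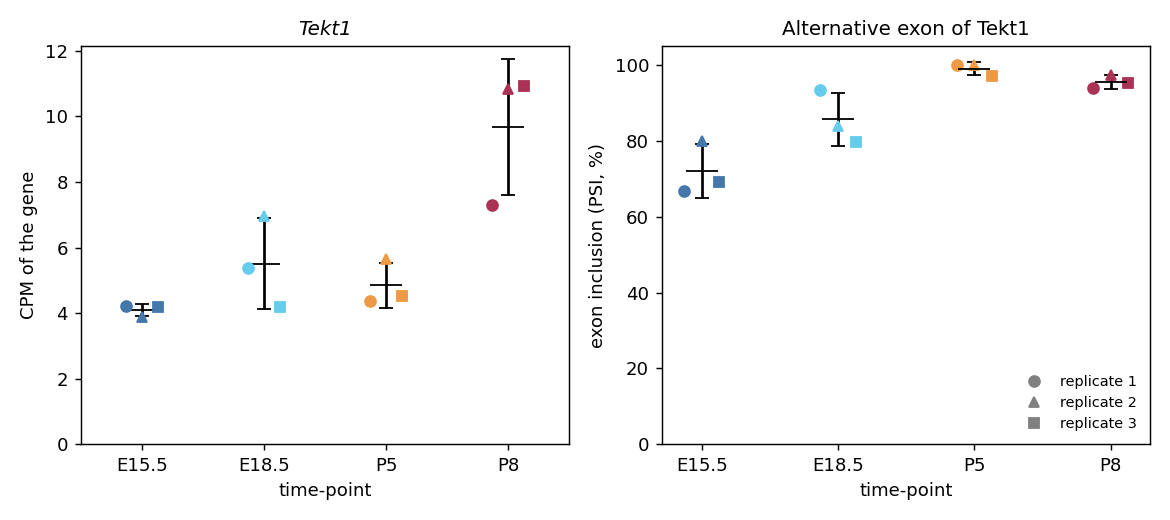
*Tekt1* by time-point: gene level in CPM (left) and inclusion of its alternative exon in percent (right); symbols are replicates, horizontal bars means and error bars SD. Inclusion goes from between 66.67 and 80.0% at E15.5 to between 97.01 and 100% at P5, whereas the gene level is highest at P8.

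Other genes of the cilium were read from lists. Of 30 further axonemal and ciliated cell genes, 16, 20 and 9 were called higher in the 3 successive intervals and 26 from E15.5 to P8, and 1 was called lower, between E18.5 and P5. The 2 with the highest levels did not follow the rest. *Mns1*, a microtubule inner protein, was the 1 gene called lower (21.2 ± 3.72 CPM before and 8.59 ± 0.596 CPM after birth in that interval, log2 fold change -1.22, edgeR FDR = 2.1e-05), and *Gas8*, of the nexin-dynein complex, had a log2 fold change of -0.16 from E15.5 to P8 (edgeR FDR = 0.2). Of 15 tested genes for dynein arm assembly and docking, 6, 6 and 4 were called higher in the 3 successive intervals and 12 from E15.5 to P8, with *Dnaaf2* called lower in the last. *Ccdc40*, which sets the axonemal repeat, rose by 4.09 from E15.5 to P8 (edgeR FDR = 7e-07), and *Dnaaf5*, a dynein assembly factor, had a log2 fold change of -0.11 (edgeR FDR = 0.19). *Sntn*, *Tmem212*, *Cdhr3*, *Ak8* and *Daw1* were among the genes of both lists that stayed under 1 CPM in every prenatal library. Such genes could pass the filter for testing only with postnatal libraries, which favoured a rise across birth. The counts of both lists in comparisons spanning birth include them and are descriptions.

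Of 13 tested genes of the multiciliogenesis programme, 4 were called higher from E15.5 to E18.5 (*Cdc20b*, *Deup1*, *Foxn4* and *Trp73*), and from E18.5 to P5 1 was higher (*Ccdc78*) and 2 lower (*Cdc20b* and *Plk4*). From P5 to P8, 3 were higher (*Ccdc78*, *Gmnc* and *Myb*) and 0 lower, and from E15.5 to P8, 6 were higher (*Ccdc78*, *Cdc20b*, *Deup1*, *Foxn4*, *Myb* and *Trp73*) and 1, *Plk4*, lower. *Ccdc78* was also under 1 CPM in every prenatal library, so the filter favoured its rise across birth. *Myb* was at 20.3, 25.1 and 9.93 CPM in P8 replicates 1 to 3 and at 4.58, 10.3 and 4.90 CPM in E15.5 replicates 1 to 3. At both time-points it was highest in the libraries that stood apart in thymus markers. The part of thymus in the level of *Myb* was not tested. *Plk4*, the kinase of centriole duplication in all dividing cells, fell from 105.2 ± 6.19 CPM to 41.9 ± 4.06 CPM from E18.5 to P5 (log2 fold change -1.24, edgeR FDR = 5.2e-08), and *E2f4* had a log2 fold change of -0.48 (edgeR FDR = 3e-05). Of the 23 genes of intraflagellar transport, which primary cilia also use, 0 were called in any of the 4 comparisons by edgeR, DESeq2 or limma, with median log2 fold changes of 0.0064, -0.30, 0.14 and -0.067. At an unadjusted p under 0.05 in edgeR, 6 of these genes were higher and 9 lower from E15.5 to P8. The 2 with the highest levels, the kinesin subunits *Kifap3* and *Kif3b*, had log2 fold changes of -0.56 and 0.55 from E15.5 to P8 (edgeR FDR = 6.5e-06 and 0.00022). Markers of club cells, the secretory neighbours of ciliated cells, summed to 231 to 267 CPM (E15.5) and 312 to 354 CPM (E18.5) before birth, and to 4002 to 4904 CPM (P5) and 6496 to 7472 CPM (P8) after it. The sums followed *Scgb1a1*, *Scgb3a2* and *Cyp2f2*, which were called higher from E18.5 to P5, while the other 2 of the 5 markers, *Aldh1a7* and *Cckar*, were called lower (log2 fold change -1.31 and -1.11, edgeR FDR = 6e-09 and 4e-08).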

How the data were processed

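Whole-lung RNA libraries of 4 time-points were compared, 3 per time-point, grouped by the age in the labels. The authors mapped reads to mm10 and Gencode with TopHat2 2.1.1 and Bowtie2 2.3.4 and deposited raw counts per gene from HTSeq 0.10.0 for 16152 genes they kept as expressed. The deposited CPM values divide each count by the mapped reads of the library, and 100% of them were whole reads within 0.1. The deposited percent spliced in values and their reads come from VAST-TOOLS. Depth was 41337443 to 53901957 counts per library.

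Symbols came from a reference table (16136 of 16152 IDs matched). The 15994 genes that reached 1 CPM in 3 or more libraries were tested with edgeR 4.0.16 (quasi-likelihood, TMM, 1 fit of 12 libraries), in R 4.3.3. FDR is Benjamini-Hochberg over all of them. DESeq2 1.42.0 and limma 3.58.1 served as alternatives. The code was tested on simulated data. Members and gene lists were chosen with earlier results of these data known. Named are all regulators, *Hydin*, *Spag6l*, *Tppp3*, the 3 genes of highest mean CPM in each other role, the 5 largest called changes of each comparison, members called in the rarer direction, and the 2 highest genes of each list. Gene positions are those of GENCODE vM21 on GRCm38, and promoters those of RefSeq on GRCm38.p6. The promoter windows shown were chosen after their matches were seen. Other settings are in the closing section. Protein sequences were not used here.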

Additional observations from a re-analysis of the deposited data

How the results depend on the processing

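Each comparison was recomputed under 22 alternatives, plus FDR without a fold cutoff. Members called from E15.5 to E18.5 (22) came to 10 with only the 2 time-points in the fit and 3 with limma on log2(CPM + 1), and to 10 to 29 with single libraries left out. From P5 to P8 (16), they came to 29 with FDR alone, 27 with only the 2 time-points in the fit, and 4 to 22 with single libraries left out. The fit without the 3 libraries with thymus and squamous markers was added after seeing the data. It leaves 1 library at P8, so its calls at P8 are not given. Calls stayed within 30 to 55 for E18.5 to P5 (44) and within 35 to 64 for E15.5 to P8 (51), where the lowest values come from testing 50 members at 5 CPM and the highest from FDR alone. The cause of the other differences was not tested. The offset in limma shrinks the changes of low genes, and its median was 0.75 for E18.5 to P5 and 1.74 over the series, against 1.33 and 3.16.

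The whole reads recovered from CPM, also added after seeing the data, gave 22, 44, 16 and 51 calls. With the replicate number as a block, the replicate block fit called 20, 45, 14 and 51 members in the 4 comparisons. Correlations of same-numbered libraries ran from -0.29 to 0.26, and those of differently numbered libraries from -0.27 to 0.22. Each compares deviations from means of 3 libraries, so these values cannot settle whether the numbers pair the libraries. Of 3236 values of the 37 named genes under alternatives, 126 lost and 43 gained a call. Among values called in the main fit or the alternative, 0 changed sign, while 28 values called in neither did. PSI means of the *Tekt1* exon stayed at 67.95 to 74.6% at E15.5, 81.8 to 88.7% at E18.5, 98.5 to 100% at P5 and 94.6 to 96.4% at P8 with single libraries left out.

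With 3 littermates per time-point, changes between litters cannot be told from changes between time-points. Low members had few reads before birth, which limits the precision of their folds.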

Other observations

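4 genes with names of the same families were in the CPM table but not in the count table. *Dnah14* was at 0.131 to 0.593 CPM, *Tekt3* at 0 to 0.592 CPM, *Cfap97d1* at 0 to 0.103 CPM and *Rsph6a* at 0 to 0.0822 CPM in the 12 libraries. Of the 69 members, 28 have exons that overlap another gene, by 20.8% of the exon length for *Tekt2* and 19.1% for *Cfap299*.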
